A study of Mus musculus with 12 samples.

Results

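Long intergenic noncoding RNAs (lincRNAs) are annotated as transcripts that lie between protein-coding genes and do not code for protein. Some genes of this class overlap a protein-coding gene or are listed as protein-coding in RefSeq. The set described here was chosen by annotation and depth: genes with the biotype lincRNA in GENCODE release M21 of the mouse genome GRCm38 and a summed raw count of 1000 or more over the 12 libraries, without Gas5 and the Snhg genes. Of the 48526 genes of the count table, 3763 carried this biotype, 1292 of those had at least 1 count, 92 reached the depth and 89 remained. The summed count was therefore used to select them and is given only as a description. It ran from 1006 to 6519513, with a median of 2425. The members just inside the limit were Gm27019 with 1021 counts, 2610035D17Rik with 1010 and Gm42031 with 1006. Just outside lay Gm43848 with 979 counts, Gm43672 with 963 and Gm20703 with 962.

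LincRNAs include nuclear RNAs that organise ribonucleoprotein bodies, precursors from which microRNAs are cut, and transcripts that arise beside immune genes. In macrophages, lipopolysaccharide (LPS), a component of the bacterial outer membrane, signals through Toll-like receptor 4 to NF-kappaB, AP-1 and interferon regulatory factors, and several lincRNAs are known targets of this response. A microRNA host transcript carries the hairpin of a microRNA, which is processed from it and pairs with target mRNAs through its seed.

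The cells were bone marrow-derived macrophages (BMDMs), grown for 6 d with 20% L929-conditioned medium from male mice aged 7 to 10 weeks. The HSS9 KO mice are homozygous for a deletion at an enhancer upstream of Tnf and were bred as homozygous pairs. The WT controls are named littermates in the labels and purchased C57BL/6 mice in the methods, so genetic background and the deletion cannot be told apart. Each genotype was left untreated (UT, PBS) or given LPS for 6 hr, which makes 4 groups of 3 libraries. Nothing says that the replicates came from separate animals, so p-values measure the spread between these libraries, which may be technical. In bulk RNA, fewer cells of a type and less RNA per cell cannot be told apart.

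Library totals were 26154533 to 36423921 counts, and 15523 genes, all 89 lincRNAs among them, passed the filter on low counts. Tnf, beside which the deletion lies, was lower in KO after LPS by a log2 fold change of -1.04 (adjusted p = 2.76e-10, edgeR). Small structured RNAs took 3.00 to 3.25% of counts in WT UT, 6.64 to 7.98% in KO UT, 4.04 to 6.89% in WT LPS and 3.23 to 3.43% in KO LPS. The summed level of 8 macrophage markers was 24738 to 33817 CPM in every library, most of it Lyz2 with group means of 18507 to 27341 CPM. None of the 8 was called between genotypes. At any fold change 5 were higher and 0 lower in KO LPS, beside 14.3% of all genes passing. In KO UT 4 were higher and 1 lower, beside 23.8%. The 8 neutrophil markers summed to 20.5 to 22.0 CPM in WT UT and 42.6 to 48.1 CPM in KO UT, and the 8 stromal markers to 22.9 to 26.1 CPM in WT LPS and 29.9 to 32.9 CPM in KO LPS. Of the markers tested, 4 of 6 neutrophil markers were called higher in KO UT and 5 of 7 stromal markers (Col1a1, Col1a2, Col3a1, Dcn and Postn, by 1.19 to 1.58 on the log2 scale) in KO LPS, while Pdgfrb, which made up most of the stromal sum, measured 19.8 CPM in WT LPS and 19.7 CPM in KO LPS. The part of these differences in the results on lincRNAs was not tested. B cell markers stayed at or under 1.79 CPM and T cell markers at or under 8.33 CPM.

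Of the 89 lincRNAs, 43 overlapped no other annotated gene, 28 overlapped a gene on the same strand and 31 one on the opposite strand. Whether strand was used in counting is not given in the sources used here, so reads of overlapping genes may be shared. A total of 51 lay within 10 kb of a protein-coding gene, of which 11 overlapped it, and 12 lay over 100 kb from any. None lay within 500 kb of Tnf. RefSeq entries could be matched to 61 members, and it lists 5 of these as protein-coding and 3 as pseudogenes.

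The microRNA hosts are shown first, because their product is defined by sequence. Mature sequences from RefSeq (GRCm38.p6) are written 5′ to 3′ with the seed, bases 2 to 8, in capitals. Mir155hg carries miR-155, known for its induction in activated macrophages, and Mir142hg carries miR-142, known for its abundance in blood cells.
mmu-miR-155-5p: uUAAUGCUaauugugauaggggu
mmu-miR-155-3p: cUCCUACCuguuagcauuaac
mmu-miR-142a-5p: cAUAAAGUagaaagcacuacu
mmu-miR-142a-3p: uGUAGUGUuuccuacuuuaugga
In Mir17hg, miR-17-5p and miR-20a-5p share a seed, miR-19a-3p and miR-19b-3p share another, and miR-18a-5p and miR-92a-3p each have their own.
mmu-miR-17-5p: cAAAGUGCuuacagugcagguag
mmu-miR-20a-5p: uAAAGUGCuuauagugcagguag
mmu-miR-19a-3p: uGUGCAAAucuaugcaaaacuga
mmu-miR-19b-3p: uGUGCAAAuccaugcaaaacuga
mmu-miR-18a-5p: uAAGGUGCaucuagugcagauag
mmu-miR-92a-3p: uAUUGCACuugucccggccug
The transcript 6720427I07Rik spans the hairpins of 3 let-7 microRNAs, which share 1 seed.
mmu-let-7a-5p: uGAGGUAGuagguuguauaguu
mmu-let-7f-5p: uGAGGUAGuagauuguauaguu
mmu-let-7d-5p: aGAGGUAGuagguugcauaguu

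Promoters are shown for the 4 lincRNAs with the highest log2 fold changes on LPS in WT BMDMs and for Gm42031, which was counted almost only in KO. Each window runs from 250 bases before to 50 bases after the RefSeq start (GRCm38.p6), 5′ to 3′ along the gene. Capitals mark matches, on either strand, to the kappaB consensus, to AP-1 (TGANTCA), to the interferon response element (GAAANNGAA) or to the PU.1 motif (GAGGAAG).
Mir155hg (chr16:84712773-84713072, plus strand): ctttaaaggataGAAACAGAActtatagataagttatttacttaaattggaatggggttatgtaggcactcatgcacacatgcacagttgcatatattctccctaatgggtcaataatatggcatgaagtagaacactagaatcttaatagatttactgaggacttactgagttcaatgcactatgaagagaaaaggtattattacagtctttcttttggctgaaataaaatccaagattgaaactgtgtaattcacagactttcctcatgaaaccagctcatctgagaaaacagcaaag
AW112010 (chr19:11050517-11050816, minus strand): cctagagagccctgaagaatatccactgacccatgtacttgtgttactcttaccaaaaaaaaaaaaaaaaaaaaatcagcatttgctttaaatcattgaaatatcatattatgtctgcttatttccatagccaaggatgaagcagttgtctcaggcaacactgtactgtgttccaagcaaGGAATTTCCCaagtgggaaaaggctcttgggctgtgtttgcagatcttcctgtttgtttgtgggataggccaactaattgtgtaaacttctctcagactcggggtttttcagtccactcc
Ptgs2os2 (chr1:150164899-150165198, minus strand): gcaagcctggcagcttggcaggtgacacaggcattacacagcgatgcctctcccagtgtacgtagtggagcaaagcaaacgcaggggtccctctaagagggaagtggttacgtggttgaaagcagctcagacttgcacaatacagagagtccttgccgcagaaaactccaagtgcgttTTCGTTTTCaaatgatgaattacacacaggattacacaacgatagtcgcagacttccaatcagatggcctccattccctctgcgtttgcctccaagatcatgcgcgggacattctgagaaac
Gm14005 (chr2:128429302-128429601, minus strand): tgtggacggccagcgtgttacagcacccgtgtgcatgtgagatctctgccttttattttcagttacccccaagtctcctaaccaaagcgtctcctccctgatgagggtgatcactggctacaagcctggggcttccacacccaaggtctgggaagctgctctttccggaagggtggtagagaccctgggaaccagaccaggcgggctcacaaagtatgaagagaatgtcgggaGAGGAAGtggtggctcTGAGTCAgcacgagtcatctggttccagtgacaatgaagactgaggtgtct
Gm42031 (chr8:85131765-85132064, minus strand): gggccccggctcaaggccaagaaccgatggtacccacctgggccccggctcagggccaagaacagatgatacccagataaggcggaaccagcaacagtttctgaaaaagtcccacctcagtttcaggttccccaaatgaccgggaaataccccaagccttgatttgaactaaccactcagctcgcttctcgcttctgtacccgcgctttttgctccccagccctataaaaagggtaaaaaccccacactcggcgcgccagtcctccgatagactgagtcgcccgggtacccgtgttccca
The AW112010 window held 1 kappaB match, the windows of Mir155hg and Ptgs2os2 1 interferon response match each, and that of Gm14005 an AP-1 and a PU.1 match that do not overlap. The Gm42031 window held none of the 4 motifs. A window was found for 10 of the 15 lincRNAs called higher after LPS in both genotypes. Among these 10, the kappaB consensus was in 1, AP-1 in 1, the interferon response element in 3 and PU.1 in 1. Over all 32851 promoters the shares were 4.51%, 7.81%, 8.56% and 13.6%, respectively. Over the 50 members with a promoter entry, called or not, they were 2%, 8%, 18% and 14%. The RefSeq start lay 9856 bases from the GENCODE 5′ end of Mir155hg, 5242 from that of AW112010 and 73414 from that of Gm14005. With windows limited to starts within 1000 bases of that end, 6 remained, of which 2 held the interferon response element and 0 any of the other motifs. These matches describe letters in a window and were not tested as sites.

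The first question was how these lincRNAs responded to LPS. A gene was called where its adjusted p in edgeR's quasi-likelihood test was below 0.05 and its log2 fold change beyond 1 in size. In WT BMDMs 37 of 89 were called, 20 higher and 17 lower. Of all genes tested, 37.8% were called, 19.1% higher and 18.7% lower, and at any fold change 73.3% passed against 73 of the 89 lincRNAs. In KO BMDMs 40 were called, 16 higher and 24 lower, where 37% of all genes were called, 17.7% higher and 19.3% lower. At any fold change 70 lincRNAs passed in KO, beside 72.8% of all genes. Among 9983 protein-coding genes of the same summed depth, 33.3% were called in WT and 33.5% in KO. The median log2 fold change of the lincRNAs was 0.24 in WT and -0.13 in KO, beside 0.05 and -0.06 over all genes. Upper-quartile scaling moved the median of all genes by -0.18 in both genotypes and turned the WT split to 15 higher and 22 lower. The lincRNAs that overlap no other gene gave 8 higher and 13 lower in WT and 7 higher and 17 lower in KO. The way the members were chosen bears on these counts. At the level of their lower treatment in all libraries, 34 of the 89 would have missed the count limit, since they had under 500 counts in UT (7) or in LPS (27). These counts are raw, while scaling factors were 0.8115 to 0.8216 in LPS and 1.155 to 1.294 in UT libraries. After scaling not all of the 34 differed: C030034I22Rik changed on LPS by a log2 fold change of 0.02 in WT and -0.09 in KO. Gm16973, low in LPS by raw count, changed by 0.47 and 0.01. Where such members did differ, the difference helped to select them, so their LPS differences describe the selection and are given with no test. Among the other 55 lincRNAs, 17 were called in WT, 13 higher and 4 lower, and 16 in KO, 9 higher and 7 lower. Of all calls, 32 were made in both genotypes, all in the same direction, which is 86.5% of the WT calls and 80% of the KO calls. These include members selected through 1 treatment, such as Mir155hg and Gm5086, and the overlap among the other 55 alone was not computed. Over all genes tested, 4802 were called in both, which is 81.8% of the WT calls and 83.6% of the KO calls, with 4799 in the same direction.

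Mir155hg reached the count limit through LPS, with 75 of its counts in UT libraries and 26498 in LPS libraries. Its level was 0.538, 0.353 and 0.277 CPM (counts per 1000000 of scaled library size) in WT UT and 0.347, 0.176 and 0.126 CPM in KO UT. After LPS it reached 195, 190 and 185 CPM in WT and 170, 168 and 154 CPM in KO. No treated library overlapped an untreated one, and every KO LPS library was below every WT LPS library. The log2 fold change on LPS was 8.93 (SE 0.123, n = 3) in WT and 9.57 (SE 0.138, n = 3) in KO. The difference between KO and WT after LPS was -0.21 (adjusted p = 0.0447, edgeR), and the LPS response itself did not pass as different between genotypes (0.63, SE 0.348, adjusted p = 0.239, edgeR).

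AW112010, an interferon- and LPS-inducible transcript, would have passed the count limit on its UT libraries alone. It had 9.29 to 10.2 CPM in WT UT and 10.3 to 10.8 CPM in KO UT. After LPS it stood at 1253, 1409 and 1553 CPM in WT and 1088, 1074 and 1114 CPM in KO, so that the KO libraries lay below all WT libraries. It rose by a log2 fold change of 7.16 in WT and 6.69 in KO, and this response differed between genotypes by -0.47 (SE 0.0993, adjusted p = 0.00242, edgeR).

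Ptgs2os2, known as lincRNA-Cox2 and transcribed beside Ptgs2, had at most 0.298 CPM in the untreated libraries. It was selected through LPS, with 35 counts in UT and 3544 in LPS libraries. After LPS it stood at 24.3, 24.8 and 22.4 CPM in WT and 22.8, 23.6 and 23.5 CPM in KO. The genotypes overlapped after LPS, with a KO against WT log2 fold change of -0.03 (SE 0.0988, adjusted p = 0.859, edgeR). Ptgs2, the prostaglandin synthase gene 50816 bases away, rose by 7.16 in WT and 7.20 in KO, beside log2 fold changes of 6.98 and 7.92 for the lincRNA.

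Gm14005 is named Morrbid in RefSeq, a lincRNA known to restrain the apoptosis gene Bcl2l11 in myeloid cells. It too was selected through LPS, with 176 counts in UT and 4150 in LPS libraries. It measured 0.655, 0.463 and 0.638 CPM in WT UT and 1.07, 0.999 and 0.658 CPM in KO UT. After LPS it measured 24.2, 32.8 and 36.3 CPM in WT and 24.0, 26.2 and 24.7 CPM in KO. Its log2 fold change was 5.72 in WT and 4.79 in KO. Bcl2l11, 15772 bases away, fell by 1.41 in WT and by 1.31 in KO on the log2 scale (adjusted p = 3.56e-13 and 1.29e-12, edgeR).

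**Figure D1:**
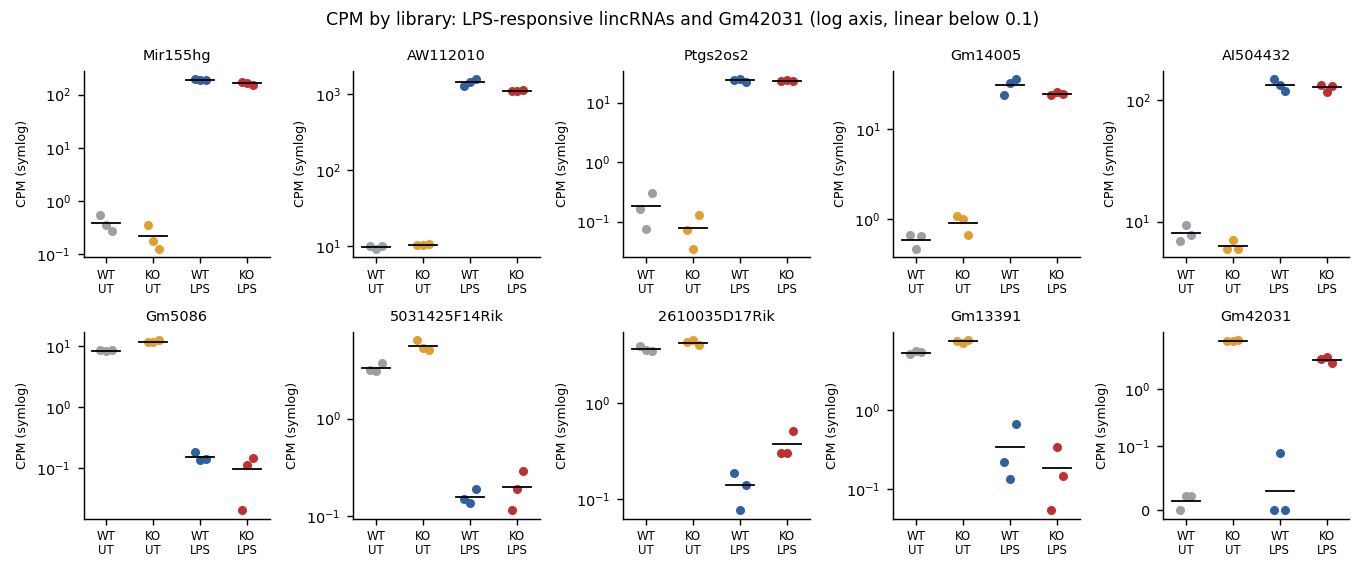
CPM by library on a log axis that is linear below 0.1 CPM, for 5 lincRNAs higher after LPS, 4 lower after LPS and Gm42031; points are libraries and bars group means (n = 3). The LPS libraries of the first 9 stand apart from the UT libraries, whereas Gm42031 separates KO from WT.

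Further lincRNAs called higher in both genotypes included AI504432 (4.05 in WT and 4.33 in KO), Gm44751 (3.79 and 3.97), Gm26652 (2.92 and 2.41), Gm7160 (2.86 and 2.56), 9330175E14Rik (2.68 and 2.60) and Gdap10 (2.63 and 2.66), all as log2 fold changes, of which Gm44751 and Gm26652 were selected through LPS. Gdap10 lies inside Nampt on the same strand and 9330175E14Rik opposite Nlrc5, so their reads may be shared with these LPS-induced genes. Mir142hg was called in WT (1.16, adjusted p = 4.43e-11, edgeR) and was under the fold minimum in KO (0.57). Of the 11 microRNA hosts, 8 rose and 2 fell at any fold change in WT, beside 73.3% of all genes passing, and 6 rose and 2 fell in KO, beside 72.8%. The let-7 host 6720427I07Rik rose by 0.59 in WT and 0.55 in KO, and Mir17hg by 0.35 and 0.49. Levels of mature microRNAs were not measured.

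Gm5086 was selected through the untreated libraries, with 2406 counts in UT and 19 in LPS. It measured 8.44, 8.23 and 8.42 CPM in WT UT and 11.5, 11.5 and 12.3 CPM in KO UT, so that all KO UT libraries were higher. After LPS it measured 0.186, 0.135 and 0.141 CPM in WT and 0.0383, 0.113 and 0.146 CPM in KO. The log2 fold change was -5.71 (SE 0.222) in WT and -6.83 (SE 0.224) in KO.
Also selected through the untreated libraries, with log2 fold changes that follow from this, were 2610035D17Rik (-4.68 in WT and -3.52 in KO), 5031425F14Rik (-4.38 and -4.78), Gm13391 (-3.98 and -5.24), Gm28875 (-3.34 and -3.01), Gm5547 (-3.04 and -4.24) and Gm14461 (-2.71 and -4.28). Functions of these transcripts were not examined.

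**Figure D2:**
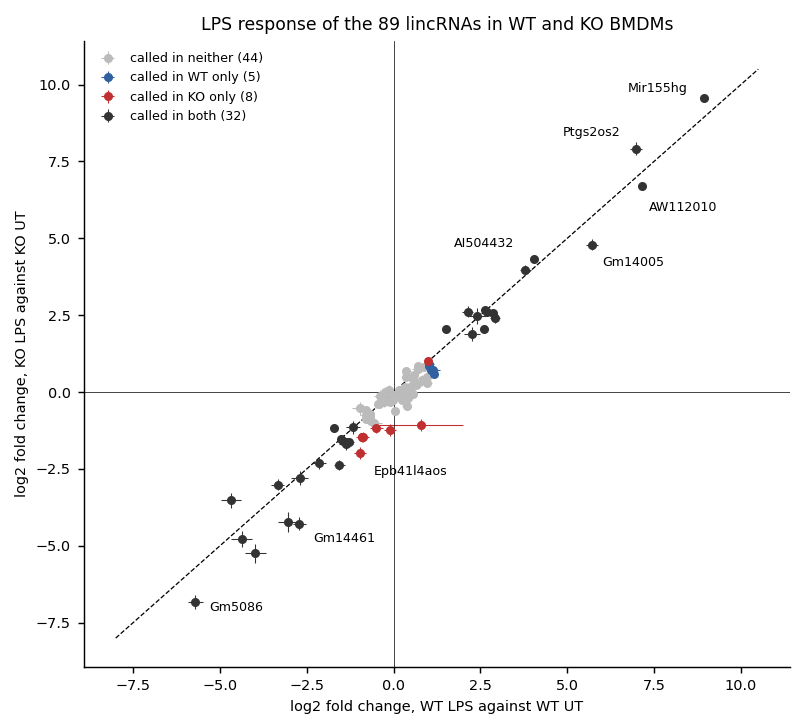
Log2 fold change on LPS of the 89 lincRNAs in WT (horizontal) and KO (vertical) BMDMs, with SE bars; the dashed line marks equal change. The 32 lincRNAs called in both genotypes lie in the upper right and lower left quadrants.

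On LPS, lincRNAs near a protein-coding gene tended to move with it, in pairs that include lincRNAs selected through 1 treatment. For 70 lincRNAs the nearest protein-coding gene was tested, and the other 19 formed no pair. Over 46 pairs within 10 kb, Spearman's rho between the log2 fold changes of the lincRNA and its nearest protein-coding gene was 0.714 in WT and 0.727 in KO, and over 24 pairs farther apart 0.34 and 0.452. Without overlapping pairs, the 36 pairs within 10 kb gave 0.651 and 0.662. Protein-coding genes of the same depth and their nearest protein-coding gene within 10 kb gave 0.264 and 0.294 over 5802 pairs. Without overlapping pairs these values were 0.281 and 0.315 over 3935 pairs, and farther apart 0.238 and 0.251 over 1779 pairs. Between KO and WT the pairs within 10 kb gave 0.154 after LPS and 0.16 without, and 0.0673 for the difference in response. These correlations are across genes in the same libraries, and genes are not independent replicates. The pairs, and the called lincRNAs counted next, include members that reached the count limit through 1 treatment, Gm44751 and Gm28875 among them. Their large changes on LPS are part of how they were selected. Values for the other 55 lincRNAs alone were not computed, so what the selection adds cannot be told. Of 19 called lincRNAs with such a pair within 10 kb in WT, 13 had a called neighbour, beside 37.8% of all genes called, and these 13 moved in the same direction as the lincRNA. In KO, 15 of 21 had a called neighbour, beside 37% of all genes, with 14 in the same direction. Of the called lincRNAs farther away, 6 of 15 in WT had a called neighbour, with 5 in the same direction, and 5 of 15 in KO, with 4. Examples were AI504432 (4.05) beside the potassium channel gene Kcna3 (3.70), Gm44751 (3.79) beside the protease gene Ctsc (3.84) and Gm28875 (-3.34) beside Syne3 (-2.99), which encodes a nuclear envelope protein. Mir155hg (8.93) and Mrpl39 (1.06), a mitochondrial ribosomal protein gene, differed in size.

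**Figure D3:**
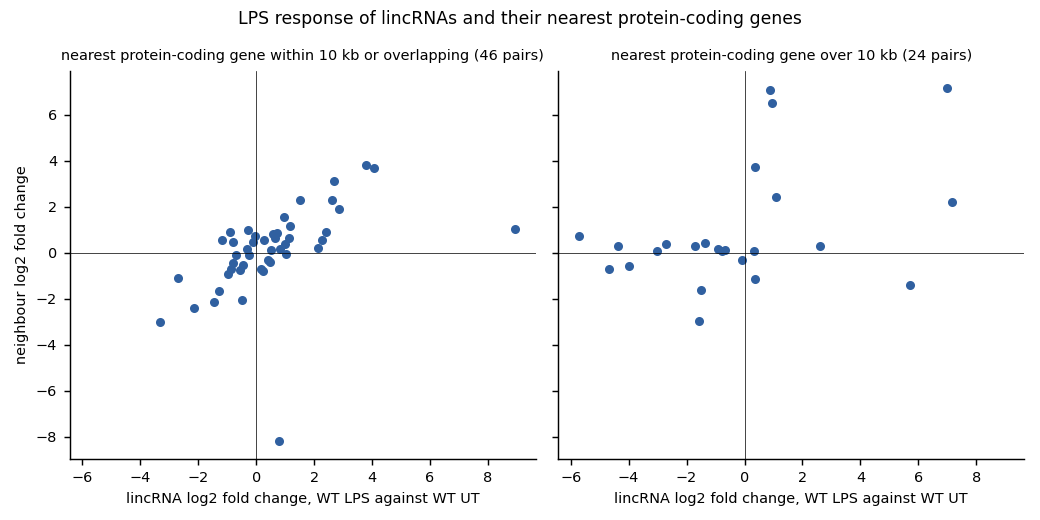
Log2 fold change in WT LPS against WT UT of each lincRNA (horizontal) and its nearest protein-coding gene (vertical), where that gene was tested, for 46 pairs within 10 kb and 24 farther apart; each point is a pair. The nearer pairs lie mostly in the quadrants of equal sign, with Gm42031, which is at 2 counts or fewer in every WT library, and Zfp791, which is at 0 CPM in WT LPS, far below the rest.

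The next question was whether the lincRNAs differed between KO and WT. After LPS 4 of 89 were called, 2 higher and 2 lower, where 1.25% of all genes were called, 0.586% higher and 0.664% lower. At any fold change 20 lincRNAs passed, 2 higher and 18 lower, beside 14.3% of all genes, 7.78% higher and 6.54% lower. Without LPS 1 was called, higher in KO, beside 1.82% of all genes, 1.02% higher and 0.799% lower. At any fold change 24 passed, 11 higher and 13 lower, beside 23.8% of all genes, 14.1% higher and 9.69% lower. This split was 7 higher and 19 lower with RLE scaling, and 7 and 18 with DESeq2. Of the protein-coding genes of the same depth, 0.471% were called after LPS and 0.761% without, and 18.7% and 31.4% passed at any fold change. After LPS all KO libraries lay above all WT libraries in 2 lincRNAs and below them in 31, beside 14.1% and 14.9% of all genes. The median of the lincRNAs was -0.21 after LPS and 0.06 without, beside -0.01 and 0.00 over all genes, and the median without LPS was -0.0075 with RLE scaling. The 20 that passed after LPS became 13 without WT LPS replicate 3, 12 without KO LPS replicate 3 and 26 without WT LPS replicate 1. Small structured RNAs took 6.89%, 3.23% and 4.04% of counts in these libraries, and their part in the change was not tested.

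Gm42031 was called in both. It reached the count limit through the KO libraries, which held 1002 of its 1006 counts, so its difference is a description of how it was selected and not a finding, and it makes up the whole count of 1 without LPS and 1 of the 4 after LPS. Its raw counts were 0, 1 and 1 in WT UT, 233, 232 and 277 in KO UT, 0, 2 and 0 in WT LPS and 87, 96 and 77 in KO LPS. With 2 counts in all in each WT group, the ratio of KO to WT was 463 (95% exact interval of the counts 128 to 3833) without LPS and 114 (31.3 to 948) after LPS, which covers counting error only. The gene is on chromosome 8 (85125872 to 85132289, minus strand), not on chromosome 17, which carries Tnf. Zfp791, the nearest protein-coding gene at 2777 bases, had 1.11 CPM in WT UT and 1.47 CPM in KO UT (log2 fold change 0.41, adjusted p = 0.422, edgeR). After LPS it was at 0 CPM in WT and 0.0122 CPM in KO, too low for a comparison.

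Of the other called lincRNAs, Gm28187 had 774 counts in WT and 410 in KO libraries and would have missed the count limit at its KO level, so its difference too is given as a description. Gm28187, a single-exon transcript with no protein-coding gene within 100 kb, measured 3.50, 3.37 and 3.91 CPM in WT LPS and 0.882, 1.46 and 1.32 CPM in KO LPS. The KO libraries were lower without overlap, by a log2 fold change of -1.55 (SE 0.21). Gm14461, which RefSeq lists as protein-coding, measured 1.30, 1.08 and 1.27 CPM in WT LPS and 0.192, 0.713 and 0.439 CPM in KO LPS, a difference of -1.43 (SE 0.306, adjusted p = 0.00336, edgeR). For 2610035D17Rik the difference of 1.38 (adjusted p = 0.0448, edgeR) rested on levels of 0.0898 to 0.186 CPM in WT and 0.3 to 0.512 CPM in KO. This call was lost in 14 alternatives, with the replicate block (1.38), DESeq2 (1.41) and no filter on low counts (1.40) among them, and the gene was filtered out where only the compared groups were fitted.

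The lincRNAs of highest count, a measure used to choose the set, are described next, all under the fold minimum between genotypes. Gm26917 and Malat1 held 88.2% of the counts of the set. Malat1, a nuclear speckle RNA, measured 14627, 14476 and 15153 CPM in WT LPS and 12447, 12081 and 11930 CPM in KO LPS (-0.28, SE 0.0407, adjusted p = 9.03e-05, edgeR), and was also lower in KO UT (-0.14, adjusted p = 0.0153, edgeR). Neat1, the scaffold RNA of paraspeckles, measured 1096, 1090 and 1200 CPM in WT LPS and 883, 858 and 826 CPM in KO LPS (-0.40, SE 0.0526, adjusted p = 2.87e-05, edgeR), and was also lower in KO UT (-0.25, adjusted p = 0.00114, edgeR). Neither gene's groups overlapped after LPS. Gm26917 differed by -0.55 and Gm42418 by -0.75 (adjusted p = 1.22e-05 and 1.20e-05, edgeR). Gm42418 lies 616 bases from Gm26917 and is the pseudogene Rn18s-rs5 in RefSeq, related to 18S ribosomal RNA. The part of ribosomal RNA in the counts of this pair was not tested. Per kilobase of exon, the mean level was 660 CPM in WT UT and 972 CPM in WT LPS for Gm42418, 59.4 and 54.3 CPM for Neat1, and 12.2 and 1747 CPM for AW112010.

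**Figure D4:**
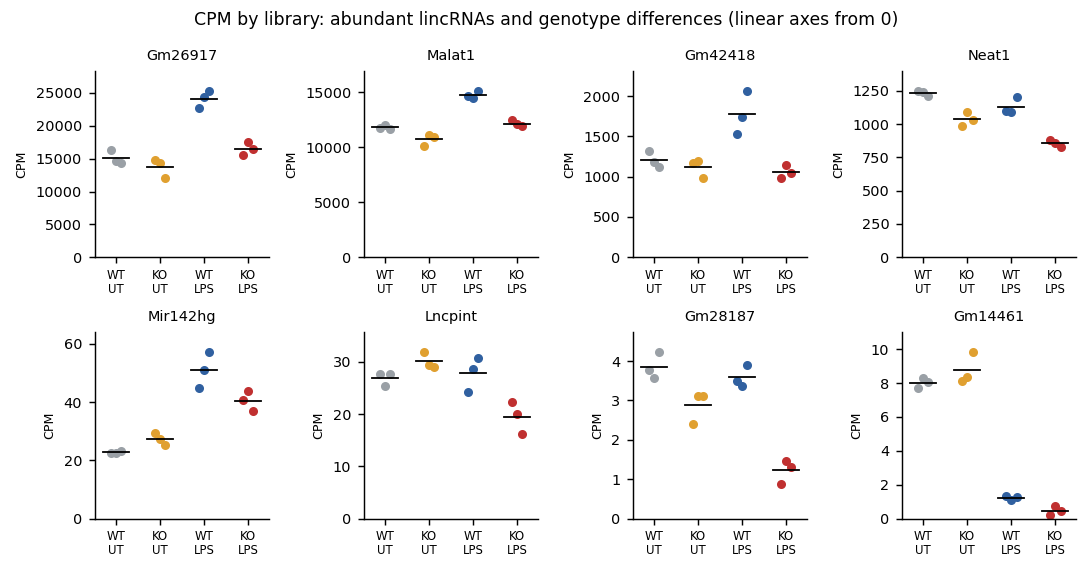
CPM by library on linear axes from 0 for 8 lincRNAs; points are libraries and bars group means (n = 3). In these 8, as in 31 of the 89 lincRNAs and 14.9% of all genes, every KO LPS library lies below every WT LPS library.

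Lncpint, a lincRNA induced by p53, measured 24.3, 28.6 and 30.8 CPM in WT LPS and 22.2, 20.1 and 16.2 CPM in KO LPS (-0.51, SE 0.101, adjusted p = 0.00168, edgeR). Mir142hg measured 44.8, 51.2 and 57.3 CPM in WT LPS and 40.9, 43.7 and 36.9 CPM in KO LPS (-0.33, adjusted p = 0.0106, edgeR). In both genes all KO libraries were lower. Among the 11 microRNA hosts, 5 were lower and 0 higher in KO after LPS at any fold change, beside 18 lower of all 89 lincRNAs and 14.3% of all genes passing in either direction. Without LPS, where 23.8% of all genes passed, 1 was higher (Mir142hg, 0.26) and 1 lower (Mir17hg, -0.46, adjusted p = 0.00316, edgeR).

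**Figure D5:**
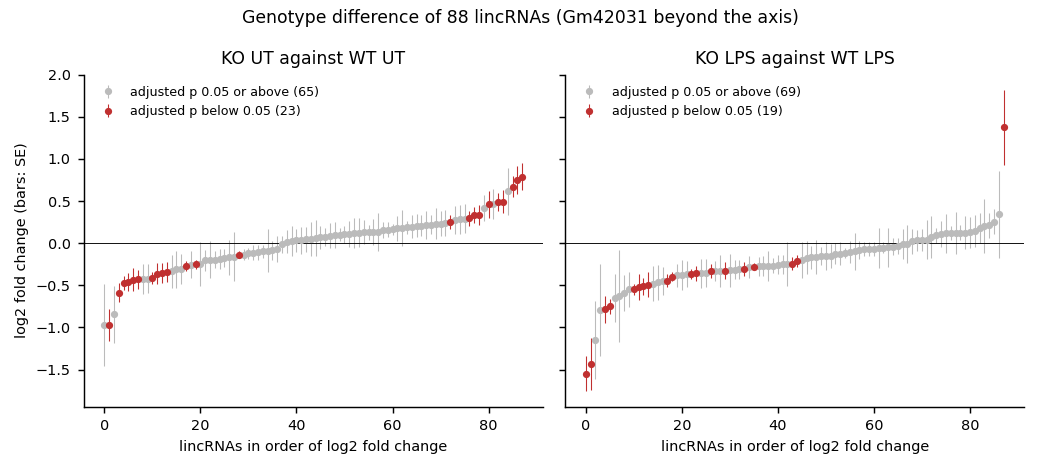
Log2 fold change of KO against WT, with SE bars, for 88 lincRNAs in order, without LPS (left) and after LPS (right); Gm42031 is beyond the axis. Red points passed an adjusted p below 0.05, and after LPS they lie mostly below 0.

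The LPS response differed between genotypes for 3 lincRNAs, all with a more negative log2 fold change in KO than in WT, where 2.16% of all genes were called, 0.522% with a higher and 1.64% with a lower log2 fold change in KO. At any fold change 18 passed, 2 higher and 16 lower, beside 16.8% of all genes, 7.32% higher and 9.5% lower. The 3 were Gm14461 (-1.57, SE 0.338, adjusted p = 0.00269, edgeR), Gm28187 (-1.13, SE 0.273) and Epb41l4aos (-1.01, SE 0.265, adjusted p = 0.0112, edgeR). Gm28187 would have missed the count limit at its KO level, so its value is given as a description with no test. Gm14461 reached the limit through the untreated libraries, with 2037 counts in UT and 122 in LPS. On LPS, the log2 fold change was -2.71 in WT and -4.28 in KO for Gm14461, -0.10 and -1.23 for Gm28187, and -0.97 and -1.98 for Epb41l4aos. Without WT LPS replicate 1 the count was 6. Leaving out WT LPS replicate 3 gave Epb41l4aos -0.74, under the fold minimum.

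Proteins that act with such RNAs were examined as 3 lists, beside 37.8% of all genes called and 73.3% passing at any fold change after LPS in WT, and 37% and 72.8% in KO. Of 15 paraspeckle proteins, 1 was called higher after LPS in WT and 2 in KO, and 13 and 12 rose at any fold change (medians 0.69 and 0.64, beside 0.05 and -0.06 over all genes), whereas Neat1 fell by 0.13 in WT and by 0.28 in KO. Of 15 microRNA processing genes, WT had 1 called higher and 3 lower after LPS, and KO had 2 called higher and 3 lower. Of 17 tested genes of the nuclear RNA exosome and its adaptors, which degrade nuclear RNA, 2 were called higher in WT, and 1 higher and 1 lower in KO. No member of these lists was called between KO and WT or for the difference in response by edgeR. At any fold change in KO after LPS, where 14.3% of all genes passed, 1 paraspeckle gene was higher and 1 lower, 1 microRNA processing gene higher and 2 lower, and 0 exosome genes higher and 1 lower. Without LPS, where 23.8% passed, 1 paraspeckle gene was higher and 2 lower, 1 microRNA processing gene higher and 5 lower, and 8 exosome genes higher and 0 lower.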

How the data were processed

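Total RNA was measured in 12 libraries of BMDMs, with 3 libraries in each of 4 groups taken from the labels. The authors used a stranded, globin-depleting total RNA kit, mapped the reads on GRCm38 by HISAT2 2.1.0 and deposited raw counts per gene from featureCounts 2.0.0, not normalized. Which annotation was counted, whether strand was used and how multi-mapping reads were handled are not given in the sources used here. Here the counts were filtered with filterByExpr (minimum count 10, minimum total 15), scaled by TMM, and fitted as 4 group means in edgeR 4.0.16 (R 4.3.3), with Benjamini-Hochberg adjustment over 15523 genes in each of 5 comparisons. DESeq2 1.42.0 was an alternative. CPM is the count per 1000000 of TMM-scaled library size. Library totals of 26154533 to 36423921 limit precision for the lincRNAs of lowest count. The labels give each replicate number as a batch, so the numbers pair the libraries by label. Same-numbered libraries deviated with correlations of -0.0631 to 0.0373 over 18 pairs. Members, gene lists and motifs were chosen with earlier results of these data known. Named genes were the 6 of highest count, a list of known lincRNAs, up to 10 called in each direction per comparison, and 3 on each side of the count limit. Genes added to illustrate a microRNA host were chosen after their values were seen. Alternatives were other scalings, filters, count limits, a replicate block and each library left out. Motif windows were first limited to RefSeq starts within 1000 bases of the GENCODE end. That limit was not part of the plan and was dropped after its counts were seen, and the counts under both are given. Promoter and microRNA sequences are from RefSeq (GRCm38.p6), and 50 members had a promoter entry.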

Additional observations from a re-analysis of the deposited data

Results flagged for a closer look

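The difference in LPS response between KO and WT BMDMs passed the test of the difference itself for 3 lincRNAs: Gm14461 (log2 difference -1.5668), Gm28187 (-1.1277) and Epb41l4aos (-1.0096). Gm28187 would have missed the count limit at its KO level, so its value describes how it was selected and is not a finding. Gm14461 reached the limit through the untreated libraries. Gm28187 was -0.9421 without KO LPS replicate 1, under the fold minimum. Epb41l4aos fell under the fold minimum or lost its call in 7 alternatives, and its value was -0.7351 without WT LPS replicate 3.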

How the results depend on the processing

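Of the alternatives for named lincRNAs, 1092 kept direction and call, 24 kept direction and lost the call, and none reversed. With no fold change minimum the counts were 20 (KO LPS against WT LPS), 24 (KO UT against WT UT), 73 (LPS in WT), 70 (LPS in KO) and 18 (difference in response). With a summed count of 2000 or more they were 1, 0, 24 and 26 in the first 4, since fewer lincRNAs were counted, and with 500 or more the WT LPS count was 57. Limited to lincRNAs that overlap no other gene, LPS gave 21 in WT and 24 in KO. Limited to lincRNAs with 500 or more counts in each treatment, a choice made after seeing the data, LPS gave 17 in WT and 16 in KO. RLE scaling and DESeq2 each called 2 in KO UT against WT UT. With each library left out in turn, the ranges were 3 to 5 (KO LPS against WT LPS), 1 to 2 (KO UT against WT UT), 36 to 40 and 39 to 41 (LPS in WT and KO) and 2 to 6 (difference in response). At any fold change, a result added after seeing the data, they were 12 to 26 after LPS and 16 to 28 without. The replicate block gave 3, 1, 37, 41 and 3 calls in the 5 comparisons and changed the call of 2610035D17Rik (1.38) among named lincRNAs. Mir142hg was 0.98 in WT under upper-quartile scaling, and Gm42031 was -0.98 in KO LPS against KO UT without KO LPS replicate 3. Causes were not tested. A group at 2 counts or fewer, as Gm42031 in WT, gives only a ratio with a wide counting interval.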
